A study of Mus musculus with 16 samples.

Results

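Muscle stem cells with the genotype label p53KO were compared between 2 libraries that carry the suffix G2 (p53KO_G2) and 3 libraries with no suffix (p53KO), 5 of the 16 libraries in the series. The libraries were chosen by their titles, with no measured value used. Per the labels, all 5 came from hind limb muscles of C57BL/6 mice aged 2 to 3 months, digested with collagenase and dispase. The sort kept cells with CD34 and alpha-7 integrin on their surface and removed those with CD31, CD11b, CD45 or Sca-1. The wild-type counterpart, p53WT_G2 (n = 2) against p53WT (n = 3), has the same tissue, age and sort, shares no library with the p53KO comparison, and is used only to show where p53KO differs. The labels do not spell out G2. The series title names a model of Duchenne muscular dystrophy, but no Dmd or telomerase genotype is given for any of these groups, nor how the p53 allele was made or in which cells it is lost. They also do not say whether libraries of a group are separate or pooled animals, so p-values measure only the spread between these samples.

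Muscle stem cells, or satellite cells, lie under the basal lamina of the fibre and are marked by the transcription factor Pax7. Most rest outside the cell cycle in uninjured muscle. Once activated they express Myod1 and divide. They then either return to rest or switch on Myog (myogenin), leave the cycle and fuse into fibres that assemble sarcomeres. The tumour suppressor p53, coded by Trp53, is a transcription factor that halts the cell cycle after damage, in large part through Cdkn1a, which codes the cyclin-dependent kinase inhibitor p21.

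Each library gives 24341 genes in FPKM (fragments per length of transcript and per depth of the library), of which 10757 to 10913 reached 1 FPKM in p53KO and 11162 and 11420 in p53KO_G2; the files give no read totals. The 11874 genes with at least 1 FPKM in 2 of the 5 libraries were tested and 12467 were not. On log2(FPKM + 1) the p53KO libraries correlated at r = 0.911 to 0.967, with replicate 3 apart from the other two, the p53KO_G2 libraries at 0.914, and libraries of different groups at 0.757 to 0.834. Trp53 was at 6.34, 12.2 and 7.17 FPKM in the p53KO libraries and 16.7 and 19.8 in p53KO_G2, below every p53WT library (39.9, 53.9 and 48.1) and p53WT_G2 library (70.97 and 59.9); which part of the gene is deleted is not stated, so this checks the label only in part. Of the sort's genes, Cd34 was at 76.5, 78.5 and 140.3 FPKM in the p53KO libraries and 58.9 and 28.9 in p53KO_G2, and Itga7, the alpha-7 integrin gene, at 89.8, 86.3 and 81.1 FPKM in the p53KO libraries and 173 and 305 in p53KO_G2. Pecam1 (CD31) reached at most 1.11 FPKM in the 5 libraries, Itgam (CD11b) 0.152, Ptprc (CD45) 0.00898 and Ly6a (Sca-1) 2.43. The telomerase RNA gene Terc had 0 FPKM in each, and also in every p53WT and p53WT_G2 library, so it does not tell the groups apart.

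Markers of other cells that such a sort could hold were mostly higher in p53KO. Summed over the genes of a list, Schwann cell markers ran from 633 to 697 FPKM in p53KO and from 274 to 293 in p53KO_G2, tenocyte markers from 1603 to 3375 FPKM in p53KO and from 332 to 453 in p53KO_G2, and fibro-adipogenic progenitor markers from 1535 to 1912 FPKM in p53KO and from 857 to 973 in p53KO_G2, and in none of these lists was a defining gene under 1 FPKM in all 5 libraries. The tenocyte sum includes Egr1, an early response gene whose values are given below. Egr1 was most of that sum in p53KO, so the contrast in the tenocyte sum is largely that of Egr1. Red blood cell markers ran from 3.67 to 45.3 FPKM in p53KO and from 0 to 1.52 in p53KO_G2, and endothelial markers from 34.8 to 49.1 FPKM in p53KO and from 23.9 to 35.6 in p53KO_G2, with Kdr, Tie1 and Vwf under 1 FPKM in all 5. For macrophage and myeloid markers the sums were 4.74 to 18.4 FPKM in p53KO and 9.17 to 18.9 in p53KO_G2, with Ptprc, Itgam, Adgre1, Csf1r and C1qa under 1 FPKM throughout. Lymphocyte markers summed to at most 4.27 FPKM in any of the 5, and neutrophil markers to 0. Pericyte and smooth muscle markers overlapped (from 1142 to 1429 FPKM in p53KO and from 1116 to 1559 in p53KO_G2). The part of these cells in the results below was not tested, and in bulk RNA fewer cells of a type and less RNA per cell cannot be told apart.

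The G2 libraries of p53KO differed widely from those with no suffix. Of 11874 genes, 2948 (24.8%) were higher and 931 (7.84%) lower in p53KO_G2 at an adjusted p under 0.05 (limma with Benjamini-Hochberg adjustment over all 11874 genes), and 2284 and 790 of them by at least 2-fold on the log2(FPKM + 1) scale. That scale understates the change of genes with low values. With FPKM as deposited the median gene was itself 0.33 higher in p53KO_G2. Median-of-ratios scaling moved that median to -0.04 and quantile normalization to -0.04, and the calls then split evenly, into 1622 higher (13.7%) and 1674 lower (14.1%) with the first and 1834 (15.4%) and 1722 (14.5%) with the second. Calls shared by the 3 scalings numbered 1577 higher (13.3%) and 923 lower (7.77%). The groups did not overlap in 4729 genes that were higher (39.8%) and 1803 that were lower (15.2%), called or not. A small rise below is therefore a rise relative to the deposited scale, and wherever a named call is lost with median-of-ratios scaling that adjusted p is given beside it. Where leaving out 1 library ends a call, the highest adjusted p so obtained stands there too, with the library. Without p53KO_G2 replicate 1 the calls were 1680 higher and 442 lower.

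The largest rises were genes of the cell cycle and of differentiating muscle. Tnnt2, the cardiac troponin T gene that embryonic skeletal muscle also uses, was at 1.56, 0 and 0 FPKM in the p53KO libraries and 129 and 132 in p53KO_G2 (log2 difference 6.59, SE 0.43, adjusted p = 5.58e-08). Ube2c, the ubiquitin-conjugating enzyme of the anaphase-promoting complex, rose from 1.03, 0.0933 and 0 to 158 and 92.6 (log2 difference 6.55, SE 0.48, adjusted p = 1.75e-07). The largest rises were picked among genes without overlap between the groups, so the gap in both genes is not a separate result. Murc, a muscle caveolar protein, went from 0, 0.646 and 0 to 55.2 and 68.3 FPKM (log2 difference 5.72, SE 0.36, adjusted p = 4.86e-08). Cacng1, a subunit of the muscle calcium channel, is listed at 0 in all 3 p53KO libraries and was at 48.02 and 64.2 in p53KO_G2 (adjusted p = 5.58e-08). Other genes among the 12 largest rises (Cdkn2a, Myh3, Myog, Ccna2, Cdca3, Top2a and Tnni1) are described with their groups.

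The 12 largest falls included secreted factors and genes of the early stress response. Btg2, an antiproliferative early response gene and p53 target, fell from 417, 400.5 and 1370.4 FPKM to 14.1 and 39.3 (log2 difference -4.63, SE 0.58, adjusted p = 3.08e-05). Nppc, the precursor of C-type natriuretic peptide, fell from 162, 188 and 437 to 5.39 and 22.8 (log2 difference -4.27, SE 0.54, adjusted p = 3.45e-05). Clu, the secreted chaperone clusterin, fell from 98.4, 73.9 and 88.2 to 4.797 and 3.93 (log2 difference -4.03, SE 0.52, adjusted p = 4.45e-05). The largest falls were picked among genes without overlap between the groups, so its absence in these 3 genes is not a separate result. Btg2 and Nppc were highest in p53KO replicate 3. Ccl19, a chemokine, was at 44.05, 21.02 and 16.3 in p53KO and is listed at 0 in both p53KO_G2 libraries (adjusted p = 3.74e-07). The neutrophil chemokine gene Cxcl3 fell from 241, 260.1 and 58.5 to 10.4 and 10.4 (-3.77, adjusted p = 0.00478), with p53KO replicate 3 the lowest of its group. Slc10a6, a transporter of sulphated steroids, fell too (-3.89, adjusted p = 0.000137), as did Rhoh, a small GTPase best known from blood cells (-3.88, adjusted p = 5.88e-05), and Mgarp, a mitochondrial protein (-4.37, adjusted p = 6.27e-05).

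Among the myogenic transcription factors Myf5 and Myod1 fell and Myog rose. Of 21 Pax and myogenic regulatory factor genes tested, 6 were called higher and 4 lower, where 24.8% and 7.84% of all genes were, with a median log2 difference of 0.01 against 0.33 over all genes. Pax7 was at 27.7, 28.2 and 97.1 FPKM in the p53KO libraries and 13.1 and 22.01 in p53KO_G2. Both G2 values lay below the 3 others, of which replicate 3 stood apart, and the difference did not pass (log2 difference -1.27, SE 0.57, adjusted p = 0.0971; 0.0393 with median-of-ratios scaling). Myf5, which follows Pax7 in activated cells, fell from 153, 159.7 and 328 to 62.2 and 61.1 (log2 difference -1.68, SE 0.43, adjusted p = 0.007, 0.0502 without p53KO_G2 replicate 1). Myod1, the determination factor, fell from 1094, 1218 and 390.2 to 161 and 174 (log2 difference -2.26, SE 0.34, adjusted p = 0.000155), again without overlap, and here replicate 3 was the lowest p53KO library. Myog, the factor of terminal differentiation, rose from 0.4102, 1.86 and 7.91 to 136 and 229 FPKM (log2 difference 5.75, SE 0.92, adjusted p = 0.000276). Every p53KO library was below the G2 pair by more than the spread of either group.

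Partners and inhibitors of these factors changed too. Tcf3, one of the E proteins that pair with Myod1 and Myog, rose from 8.31, 7.24 and 18.3 FPKM to 51.5 and 45.3 (2.11, adjusted p = 8.35e-05), as did the E protein Tcf12 (1.14, adjusted p = 0.000821). Id3, which sequesters E proteins, fell from 967, 1013 and 2189 to 215 and 302 (log2 difference -2.34, SE 0.44, adjusted p = 0.00103), while its relative Id1 stood at 127, 148 and 146 FPKM in the p53KO libraries and 143 and 134 in p53KO_G2 (-0.01, adjusted p = 0.987). Msc (musculin), a repressor that competes with Myod1, fell from 276, 322 and 315 to 46.2 and 50.5 (log2 difference -2.63, SE 0.72, adjusted p = 0.0114, 0.0761 without p53KO_G2 replicate 1, also lost without p53KO_G2 replicate 2). Hes6, which promotes myogenic differentiation, rose from 5.84, 3.33 and 13.9 to 24.2 and 39.96 (2.08, adjusted p = 0.0075, 0.0754 without p53KO_G2 replicate 2). The plot of 12 genes by library shows the opposite course of Myod1 and Myog.

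**Figure D1:**
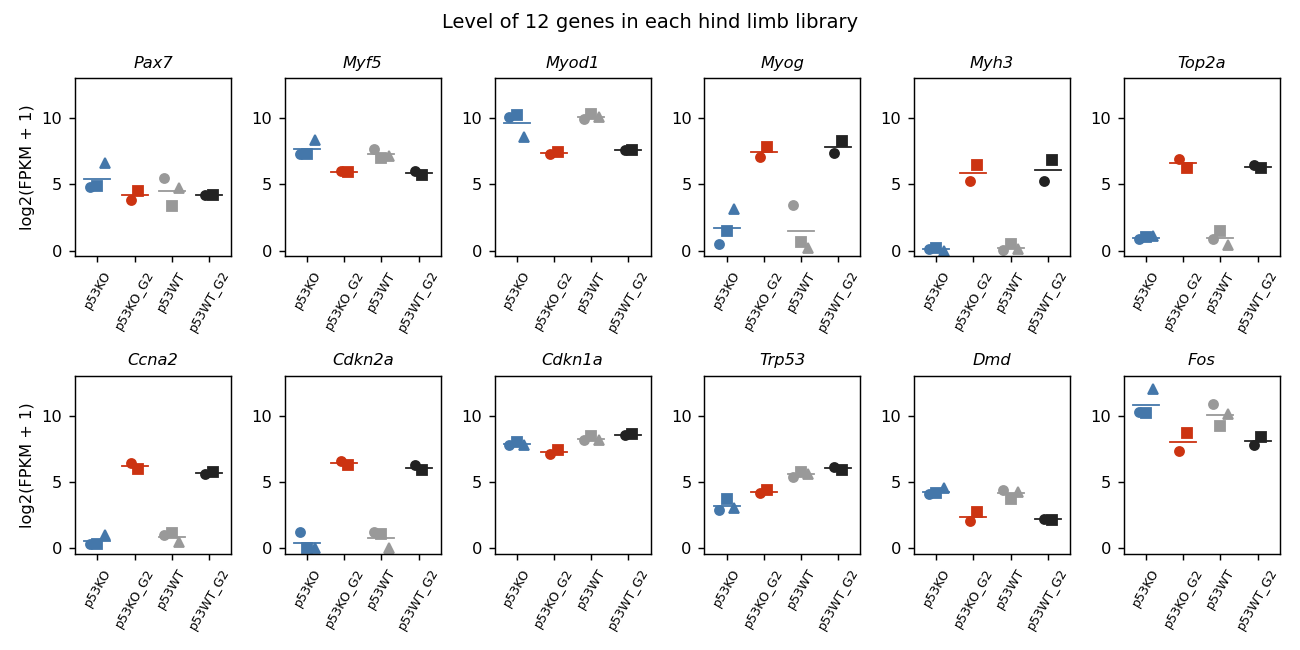
Level of 12 genes as log2(FPKM + 1) in each hind limb library of p53KO (blue), p53KO_G2 (red), p53WT (grey) and p53WT_G2 (black); circles, squares and triangles are replicates 1, 2 and 3, and the line is the group mean. Myog, Myh3, Top2a, Ccna2 and Cdkn2a lie higher in both G2 groups than in the groups without the suffix, and Myf5, Myod1, Dmd and Fos lower, while Cdkn1a is lower in p53KO_G2 but not in p53WT_G2.

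Genes of muscle differentiation rose together in p53KO_G2. Of 37 muscle differentiation and sarcomere genes tested, 29 were called higher and 1 lower, with a median log2 difference of 2.65, where 24.8% of all genes were called higher and 7.84% lower. The mean of the list on log2(FPKM + 1) was 2.23 to 2.32 in p53KO and 4.71 to 5.64 in p53KO_G2. Myh3, embryonic myosin heavy chain, rose from 0.124, 0.153 and 0 FPKM to 38.3 and 86.9 (log2 difference 5.75, SE 0.52, adjusted p = 1.38e-06). Tnni1, slow troponin I, rose from 1.14, 0.895 and 0 to 73.7 and 72.3 (log2 difference 5.54, SE 0.96, adjusted p = 0.000519), and Actc1, the actin of embryonic sarcomeres, from 3.48, 0.573 and 2.48 to 80.6 and 197 (log2 difference 5.45, SE 0.63, adjusted p = 1.43e-05). Acta1, skeletal alpha-actin, rose from 15.2, 10.6 and 21.7 to 168 and 392 (3.99, adjusted p = 0.000203). No p53KO library reached the lower G2 library in any of these 4 genes, which also held for 39.8% of all genes tested. Of the p53KO_G2 pair, replicate 2 was the higher in 32 of the 37 genes, and without it 21 genes were called higher. Cryab, a small heat shock protein of the sarcomere, was the gene called lower (648, 685 and 392 FPKM in the p53KO libraries and 218 and 204 in p53KO_G2; -1.40, adjusted p = 0.00861, 0.0519 without p53KO_G2 replicate 1, also lost without p53KO_G2 replicate 2).

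Single genes of fusion and of mature fibres rose, in lists called about as often as all genes (24.8% higher, 7.84% lower). Tmem8c, which codes the fusion protein myomaker, is listed at 0 in every p53KO library and was at 24.3 and 56.4 FPKM in p53KO_G2 (adjusted p = 2.75e-05). Chrng, the fetal subunit of the acetylcholine receptor, rose from 0.114, 0.0989 and 0 to 18.99 and 38.2 (4.71, adjusted p = 6.6e-07). Cdh2, N-cadherin, rose from 2.81, 2.07 and 1.41 to 33.2 and 31.01 (3.44, adjusted p = 2.68e-07). Of 14 fusion and adhesion genes tested 5 were higher and 1 lower. Of 21 mature fibre genes 14 passed the filter on low values, and 4 of these were higher. Eno3, muscle enolase, rose from 7.54, 7.504 and 14.2 to 285 and 251 (4.70, adjusted p = 1.73e-08), whereas Ckm, muscle creatine kinase, stood at 6.86, 9.31 and 4.79 FPKM in the p53KO libraries and 10.5 and 28.3 in p53KO_G2 (1.24, adjusted p = 0.142).

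Nearly every gene of mitosis and DNA replication that was tested rose in p53KO_G2, where 24.8% of all genes were called higher and 7.84% lower. Of 54 mitosis genes 53 were called higher and 0 lower (median log2 difference 4.01), and of 40 DNA replication genes 38 and 0 (median 2.54). With median-of-ratios scaling the counts higher were 53 and 35. The mean of the mitosis list was 0.80 to 1.01 on log2(FPKM + 1) in p53KO and 4.63 to 5.21 in p53KO_G2; that of the replication list was 1.90 to 2.38 and 4.32 to 4.85. Replicate 1 was the higher of the G2 pair in 48 mitosis and 34 replication genes, the reverse of the differentiation genes. Pttg1, securin, was the mitosis gene not called (25.3, 24.9 and 34.8 FPKM in the p53KO libraries and 21.9 and 55.4 in p53KO_G2). Pcna, the sliding clamp of DNA polymerase, was not called either, at 144, 145 and 113 FPKM in the p53KO libraries and 174 and 121 in p53KO_G2, nor was Gins1, a helicase subunit (1.70, adjusted p = 0.0722).

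Values of single cell cycle genes show the size of the step. Ccna2, cyclin A2, was at 0.264, 0.261 and 0.994 FPKM in the p53KO libraries and 85.9 and 63.3 in p53KO_G2 (log2 difference 5.67, SE 0.26, adjusted p = 4.4e-09). Top2a, topoisomerase II alpha, rose from 0.803, 1.08 and 1.11 to 120.3 and 74.9 (log2 difference 5.59, SE 0.30, adjusted p = 1.73e-08), and Cdca3, a mitotic entry factor, from 0, 1.27 and 0 to 71.5 and 55.6 (log2 difference 5.61, SE 0.42, adjusted p = 1.75e-07). In these 3 genes every p53KO value was low, at most 1.27 FPKM, replicate 3 included. Cdk1, the mitotic kinase, rose from 0.0123, 0 and 1.35 to 35.6 and 38.4 (4.83, adjusted p = 1.45e-07), and Mki67, the proliferation antigen Ki-67, from 0.690, 0.782 and 1.598 to 47.9 and 33.8 (4.38, adjusted p = 2.36e-07). Ccnb1, cyclin B1, and Tk1, thymidine kinase, are listed at 0 in all 3 p53KO libraries; Ccnb1 was at 48.3 and 20.1 FPKM in p53KO_G2 (adjusted p = 2.8e-08) and Tk1 at 53.1 and 24.1 (adjusted p = 3.57e-08). In the replication list Uhrf1, a reader of hemimethylated DNA, rose (4.34, adjusted p = 4.76e-06), as did Cdc45, a helicase factor (4.28, adjusted p = 1.79e-07), and Lig1, DNA ligase I (3.52, adjusted p = 4.12e-07).

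Many promoters of mitotic genes carry a CCAAT box, which NF-Y binds, and a cell cycle homology region, through which the DREAM complex holds such genes silent in resting cells. Both were searched by their letters on either strand, the box as CCAAT (which reads ATTGG on the opposite strand) and the region as TTTGAA (which reads TTCAAA on the opposite strand) or as the palindrome TTCGAA, in the 100 bases before the first start listed for each gene by RefSeq (GRCm38.p6). A promoter was found for 44 of the 53 called mitosis genes. Of these 29 (65.9%) held CCAAT, 12 (27.3%) the second motif and 8 (18.2%) both, and over all 27025 genes of the promoter table the shares were 19.6%, 6.29% and 1.17%. Over the 9068 tested genes with a promoter, the pool that the mitosis genes came from, they were 23.3%, 3.31% and 0.948%. A match is a description of letters, not a bound site. Promoters on a chromosome that was set aside were not printed. Of the others, the 5 with both motifs and the largest rises are printed 5′ to 3′ on the strand of the gene. The motifs are in capitals. These genes are among the largest rises and show how the 2 motifs sit together. They lie at Ube2c chr2:164769829-164769928 (plus strand), Top2a chr11:99024190-99024289 (minus strand), Kif22 chr7:127042421-127042520 (minus strand), Cdk1 chr10:69352913-69353012 (minus strand) and Cdc20 chr4:118437344-118437443 (minus strand).
Ube2c: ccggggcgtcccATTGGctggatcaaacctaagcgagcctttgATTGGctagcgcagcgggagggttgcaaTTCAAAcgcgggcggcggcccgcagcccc
Top2a: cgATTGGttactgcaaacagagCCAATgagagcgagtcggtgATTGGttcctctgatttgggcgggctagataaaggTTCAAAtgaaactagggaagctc
Kif22: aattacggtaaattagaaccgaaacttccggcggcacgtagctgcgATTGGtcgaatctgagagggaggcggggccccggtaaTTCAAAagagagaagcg
Cdk1: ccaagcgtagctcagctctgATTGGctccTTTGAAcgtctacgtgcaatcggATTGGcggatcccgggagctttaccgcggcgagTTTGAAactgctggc
Cdc20: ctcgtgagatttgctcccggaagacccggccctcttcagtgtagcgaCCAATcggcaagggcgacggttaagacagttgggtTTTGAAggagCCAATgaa
In all 5, a CCAAT box lies upstream of the copy of the second motif that is nearest to the start, and the motifs do not overlap. Cdc20, an activator of the anaphase-promoting complex, rose from 1.97, 1.01 and 0 FPKM to 79.4 and 31.5 (4.82, adjusted p = 1.87e-05), and Kif22, a chromosome motor, from 0, 0.676 and 0.04802 to 52.6 and 34.2 (5.17, adjusted p = 4.9e-08).

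Most G1 genes rose as well, by less, where 24.8% of all genes were called higher and 7.84% lower. Of 23 genes of G1 cyclins, Cdk4/6, E2F and Rb, 15 were higher and 1 lower (median 1.42), and 11 and 1 with median-of-ratios scaling. Cdk6, a partner of D cyclins, rose from 1.52, 2.29 and 0 FPKM to 28.8 and 26.2 (3.82, adjusted p = 7.12e-06), and its relative Cdk4 from 48.6, 51.4 and 75.6 to 201 and 213 (log2 difference 1.83, SE 0.19, adjusted p = 4.31e-06). E2f8, a late cell cycle repressor, rose from 0.197, 0.0682 and 0.474 to 16.02 and 20.9 (3.97, adjusted p = 6.72e-07), and Ccne1, cyclin E1, from 1.12, 0.717 and 3.52 to 16.6 and 20.5 (2.93, adjusted p = 3.21e-05). The gene called lower was Myc, a growth factor-induced transcription factor, which fell from 403, 411 and 352 to 133 and 162 (log2 difference -1.39, SE 0.40, adjusted p = 0.0141, 0.111 without p53KO_G2 replicate 1).

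Of 6 Cdk inhibitor genes besides p21, 3 were higher and 0 lower, where 24.8% and 7.84% of all genes were. Cdkn2a, the locus of p16 and p19Arf, was at 1.397, 0 and 0 FPKM in the p53KO libraries and 96.4 and 77.3 in p53KO_G2 (log2 difference 6.03, SE 0.51, adjusted p = 5.92e-07); a value for the gene does not separate its transcripts. Cdkn1c (p57), which accompanies cell cycle exit in muscle, rose from 22.7, 23.7 and 14.6 to 143 and 214 (log2 difference 3.07, SE 0.50, adjusted p = 0.000303). Cdkn2b (p15) rose from 0.3301, 1.43 and 2.63 to 11.2 and 9.66 (log2 difference 2.33, SE 0.76, adjusted p = 0.029, 0.0573 with median-of-ratios scaling, 0.141 without p53KO_G2 replicate 1, also lost without p53KO replicate 1 or p53KO_G2 replicate 2 or p53KO replicate 2). The G2 values of all 3 were above every p53KO value, as they were in 39.8% of all genes tested. Cdkn1b, Cdkn2c and Cdkn2d were not called, with Cdkn1b at 33.9, 34.5 and 47.7 FPKM in the p53KO libraries and 37.6 and 37.8 in p53KO_G2. Cdkn1a was at 224, 267 and 221 FPKM in the p53KO libraries and 137 and 168 in p53KO_G2, lower in both G2 libraries but short of the threshold (log2 difference -0.64, SE 0.32, adjusted p = 0.145; 0.0169 with median-of-ratios scaling).

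Genes that mark resting muscle stem cells were lower in p53KO_G2. Of 35 quiescence genes tested 17 were called lower and 4 higher, where 7.84% and 24.8% of all genes were. Their median was -1.26 against 0.33 over all genes. All 17 falls held in the 3 scalings and 1 of the rises did. Calcr, the calcitonin receptor that keeps satellite cells at rest, fell from 36.9, 43.1 and 72.2 FPKM to 7.32 and 11.9 (log2 difference -2.26, SE 0.38, adjusted p = 0.00041). Spry1, an inhibitor of FGF signalling needed for return to rest, fell from 97.8, 91.6 and 172 to 20.8 and 47.4 (log2 difference -1.84, SE 0.46, adjusted p = 0.00686, 0.129 without p53KO_G2 replicate 1). Chrdl2, a BMP antagonist, fell from 169, 207 and 208 to 13.8 and 26.9 (log2 difference -3.26, SE 0.30, adjusted p = 1.84e-06). In none of the 3 did the groups overlap, where 15.2% of all genes tested were lower without overlap. Gpx3, a secreted glutathione peroxidase, was among the most abundant transcripts of p53KO at 3255, 3277 and 2981 and fell to 353 and 505 (-2.91, adjusted p = 1.43e-05). Fam132b, which codes erythroferrone (myonectin), fell from 1320.1, 1729.8 and 963 to 107 and 222 (-3.07, adjusted p = 0.00021). Sdc4, a heparan sulphate receptor of satellite cells, fell too (-2.02, adjusted p = 1.33e-05), and Cd34 from 76.5, 78.5 and 140.3 to 58.9 and 28.9 (-1.18, adjusted p = 0.0126, 0.193 without p53KO_G2 replicate 2), while the other gene of the sort, Itga7, rose (1.41, adjusted p = 0.000172).

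Notch signalling holds satellite cells at rest; its genes were called about as often as all genes. Of the 24 Notch pathway genes tested 6 were higher and 3 lower, where 24.8% and 7.84% of all genes were, and 2 and 6 with median-of-ratios scaling. Hey1, a target, fell from 60.95, 44.8 and 53.5 FPKM to 12.1 and 11.6 (log2 difference -2.06, SE 0.45, adjusted p = 0.00294), and Heyl, another, from 30.1, 28.8 and 77.9 to 10.9 and 18.5 (log2 difference -1.46, SE 0.41, adjusted p = 0.0138, 0.161 without p53KO_G2 replicate 1). Hes1 was at 54.5, 35.7 and 103 FPKM in the p53KO libraries and 11.8 and 28.6 in p53KO_G2 and narrowly missed the threshold (-1.61, adjusted p = 0.0524). Notch3, a receptor, fell from 88.5, 74.6 and 147 to 32.2 and 63.9 (-1.11, adjusted p = 0.0149, 0.252 without p53KO_G2 replicate 1, also lost without p53KO replicate 3), whereas Notch1 (-0.61, adjusted p = 0.0866) and Notch2 (0.01, adjusted p = 0.991) were not called. The ligand gene Jag2 rose from 0.5697, 0.609 and 1.26 to 3.29 and 3.41 (1.28, adjusted p = 0.0064).

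Early response and heat shock genes, which digestion of tissue is known to induce, were lower in p53KO_G2 than in p53KO. Over all genes 7.84% were called lower and 24.8% higher. Of 20 dissociation response genes 19 were called lower and 0 higher (median -2.68), of 33 immediate early genes 23 and 2 (median -2.08), and of 24 heat shock genes 13 and 2 (median -1.13). The dissociation list shares 11 genes with the immediate early list and 4 with the heat shock list, and Dusp1 and Cebpb with the quiescence list. Fos, an AP-1 subunit, fell from 1265, 1164 and 4273 FPKM to 163 and 409 (log2 difference -2.83, SE 0.53, adjusted p = 0.000952). Egr1 fell from 1168, 1325 and 3089.6 to 91.2 and 208 (log2 difference -3.60, SE 0.63, adjusted p = 0.000518), and Atf3 from 595, 495 and 1759.7 to 53.1 and 79.9 (log2 difference -3.60, SE 0.51, adjusted p = 9.34e-05). Replicate 3 held the highest p53KO value in each, and it was the highest of its group in 26 of the 33 immediate early genes. Without p53KO replicate 3 the immediate early genes called lower numbered 23, the dissociation response genes 17 and the heat shock genes 9. Without p53KO_G2 replicate 1 each of these lists had fewer genes called lower than with all libraries. Dnajb1, a co-chaperone of Hsp70, fell from 848, 693 and 2466 to 76.7 and 77.5 (log2 difference -3.86, SE 0.47, adjusted p = 2.5e-05), and Hspa1a, inducible Hsp70, from 742, 598 and 1862 to 83.5 and 48.1 (-3.87, adjusted p = 0.0277, 0.134 without p53KO_G2 replicate 2, also lost without p53KO_G2 replicate 1 or p53KO replicate 3), while constitutive Hsp90ab1 stood at 1836, 1911 and 2099 FPKM in the p53KO libraries and 1844 and 1526 in p53KO_G2. The part of tissue handling in these differences, and in the quiescence genes beside them, was not tested.

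**Figure D2:**
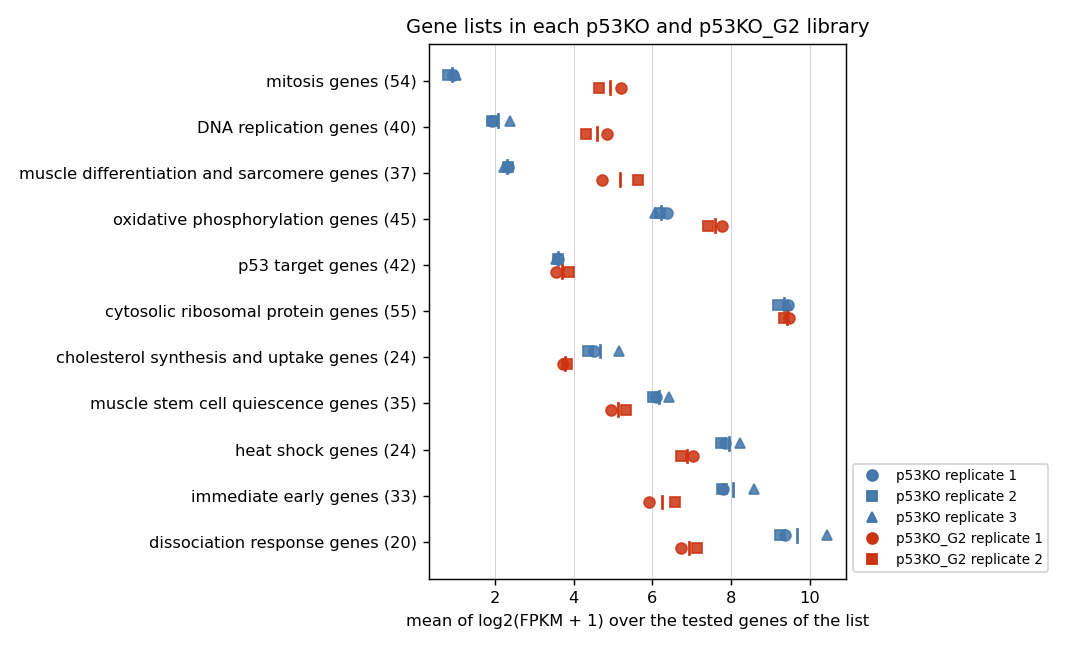
Mean of log2(FPKM + 1) over the tested genes of 11 lists (number of genes in brackets) in the 3 p53KO libraries (blue) and the 2 p53KO_G2 libraries (red); symbols mark replicates and the tick is the group mean. The groups are apart for all lists except the p53 target and ribosomal protein lists, and p53KO replicate 3 lies apart from its group in the early response lists.

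Energy metabolism and the ribosome took different courses, beside 24.8% of all genes called higher and 7.84% lower. Of 45 oxidative phosphorylation genes 39 were higher and 0 lower (median 1.43), and 30 higher with median-of-ratios scaling. Ndufa4, a subunit of the respiratory chain, rose from 147, 104 and 66.8 FPKM to 507 and 455 (2.24, adjusted p = 0.000151), Atp5o, of ATP synthase, from 103, 97.7 and 76.3 to 514 and 332 (2.16, adjusted p = 3.08e-05), and Sdhd, of succinate dehydrogenase, rose as well (2.11, adjusted p = 3.49e-06). Of 55 cytosolic ribosomal protein genes 2 were higher and 0 lower (median 0.03), but 0 and 6 with median-of-ratios scaling. Cholesterol synthesis and uptake genes were called lower in 10 of 24 cases and higher in 0 (median -0.75), and lower in 16 with median-of-ratios scaling. Lpl, lipoprotein lipase, the 1 adipocyte marker called lower, fell from 187, 203 and 326 to 24.6 and 21.2 (-3.29, adjusted p = 3.13e-07).

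The dystrophin gene itself was lower in p53KO_G2. Dmd, which codes the protein that links the fibre's actin to its membrane complex, was at 15.99, 17.02 and 22.002 FPKM in the p53KO libraries and 3.26 and 5.57 in p53KO_G2 (log2 difference -1.86, SE 0.32, adjusted p = 0.000481), and at 20.5, 12.5 and 18.1 in p53WT and 3.75 and 3.52 in p53WT_G2 (-1.93, adjusted p = 0.000358; interaction 0.08). The groups did not overlap in either genotype. Other members of the dystrophin complex list were called higher in 7 of the 21 genes tested, and Dmd was the only one called lower, near the shares of all genes (24.8% and 7.84%). Cav3, caveolin 3, rose from 0, 0.142 and 2.11 to 12.6 and 15.6 (3.30, adjusted p = 0.00235). Utrn, the dystrophin homologue utrophin, was at 29.8, 26.98 and 31.03 FPKM in the p53KO libraries and 14.7 and 23.5 in p53KO_G2 (-0.62, adjusted p = 0.0971; 0.0136 with median-of-ratios scaling).

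Genes associated with rhabdomyosarcoma, the tumour that the series title names, were called about as often as all genes, and some members rose strongly. Of 22 rhabdomyosarcoma associated genes 7 were higher and 2 lower, with a median (0.08) below that of all genes. Hmga2, a fetal chromatin protein, was at 0.0742, 0.00856 and 0.3599 FPKM in the p53KO libraries and 15.999 and 18.2 in p53KO_G2 (log2 difference 3.99, SE 0.28, adjusted p = 1.28e-07). Ezh2, the methyltransferase of Polycomb complex 2, rose from 9.52, 8.68 and 10.4 to 47.3 and 35.9 (log2 difference 2.01, SE 0.21, adjusted p = 6.34e-06). Igf2, a fetal growth factor, rose from 34.8, 39.4 and 48.6 to 67.9 and 134 (log2 difference 1.22, SE 0.30, adjusted p = 0.00646, 0.0584 with median-of-ratios scaling, 0.123 without p53KO_G2 replicate 2). All 3 were higher in both G2 libraries than in any p53KO library, as were 39.8% of all genes tested. Myog and Myl4, also in this list, belong to the differentiation genes above. Gli2, a hedgehog effector, fell from 3.35, 2.86 and 13.6 to 0.432 and 1.89 (-1.62, adjusted p = 0.0296, 0.262 without p53KO_G2 replicate 1, also lost without p53KO replicate 3). Of 18 telomere genes 5 were higher and 0 lower, near the 24.8% and 7.84% of all genes, and 2 higher with median-of-ratios scaling; Blm, a helicase, rose from 0.879, 0.866 and 2.85 to 7.85 and 5.27 (1.65, adjusted p = 0.00439, 0.0611 without p53KO_G2 replicate 1).

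The G2 difference in p53KO was set beside that in wild-type cells. In p53WT_G2 against p53WT, 2848 of the same genes were higher (24.0%) and 713 lower (6.00%), or 2319 in all without p53WT_G2 replicate 1 and 1840 without replicate 2. Of the 3879 genes called in p53KO, 2698 (69.6%) were called in the same direction in p53WT, which is 75.8% of the 3561 calls there, and 0 were called in opposite directions. Across the 11874 genes the differences correlated at r = 0.826, a description over genes of one filter that are not independent replicates. The interaction, the difference in p53KO minus that in p53WT, was tested by limma for every gene: 0 passed, 505 had an unadjusted p under 0.05, and the smallest adjusted p was 0.123. With quantile normalization 1 gene passed, with a pseudocount of 0.1 FPKM 2, and with no filter on low values 5. The mitosis and differentiation lists had median differences of 4.01 and 2.65 in p53KO and 3.87 and 2.92 in p53WT.

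**Figure D3:**
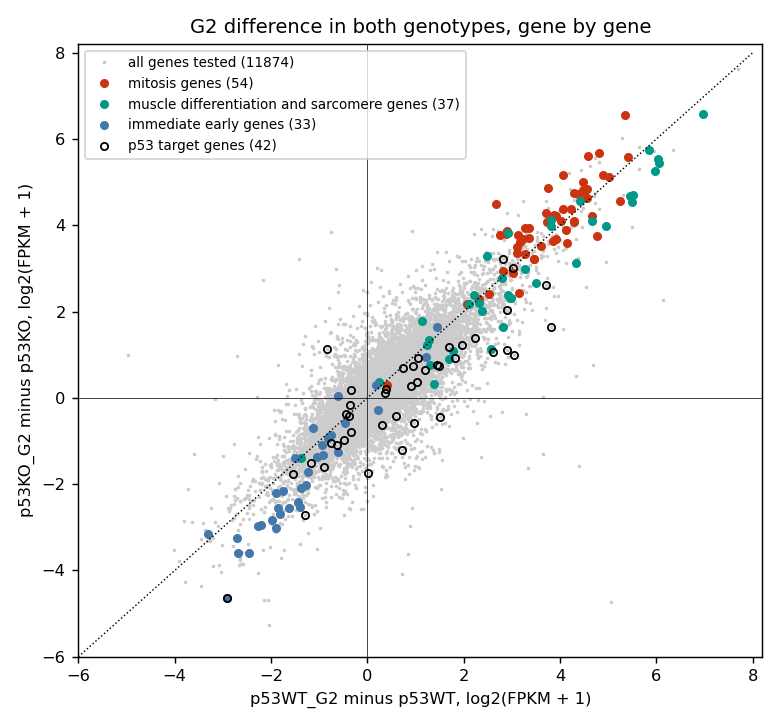
Difference between G2 and no suffix on log2(FPKM + 1) for each of 11874 tested genes, p53KO on the y axis and p53WT on the x axis, with 4 lists in colour; the dotted line marks equal differences. Mitosis (red) and differentiation genes (green) lie high and immediate early genes (blue) low in both genotypes, and most p53 target genes (open circles) and most immediate early genes lie below the dotted line.

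Genes that p53 is known to activate mostly had a lower G2 difference in p53KO than in p53WT, as did several other lists, and no single interaction passed. Of 42 p53 target genes 14 were called higher and 5 lower in p53KO_G2 (median 0.23; 6 and 8 with median-of-ratios scaling), against 20 and 3 in p53WT (median 0.83); of all genes 24.8% were higher and 7.84% lower in p53KO, and 24.0% and 6.00% in p53WT. The wild-type difference was the higher in 37 of the 42 targets (88.1%) and in 52.5% of all genes tested, and the median interaction was -0.66 against -0.03. The same held for 100% of dissociation response genes, 100% of tenocyte markers, 92.3% of fibro-adipogenic progenitor markers, 91.7% of heat shock genes, 91.7% of cholesterol genes and 81.8% of immediate early genes, lists that were lower in p53KO_G2, and for 87.5% of apoptosis genes, so the shift is not particular to p53 targets; the median interaction was -0.77 in the dissociation list, -1.08 in the tenocyte list and -0.73 in the cholesterol list. Of the p53 targets 10 had an unadjusted interaction p under 0.05 and 0 passed. Ccng1, cyclin G1, was at 4.93, 9.21 and 6.19 FPKM in the p53KO libraries and 16.9 and 11.8 in p53KO_G2 (1.00, adjusted p = 0.0131, 0.134 with median-of-ratios scaling, 0.151 without p53KO_G2 replicate 1, also lost without p53KO replicate 1), and at 10.2, 5.43 and 7.57 in p53WT and 70.2 and 68.7 in p53WT_G2 (interaction -2.05, limma's adjusted p = 0.291). Zmat3, which binds RNA, was at 1.08, 0.852 and 1.26 FPKM in the p53KO libraries and 2.99 and 3.65 in p53KO_G2, and at 0.968, 0.838 and 1.07 in p53WT and 12.5 and 9.65 in p53WT_G2 (interaction -1.55, adjusted p = 0.652). For Cdkn1a the p53WT libraries were at 286, 359 and 283 and the p53WT_G2 libraries at 369 and 388, so that its difference was 0.30 there and -0.64 in p53KO (limma's interaction adjusted p = 1). Without p53KO_G2 replicate 1 the targets called in p53KO numbered 8 higher and 2 lower, and without p53KO replicate 1 the targets lower numbered 3.

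Some p53 targets were called in p53KO_G2 against p53KO. Phlda3, an Akt inhibitor, rose from 15.5, 11.5 and 7.17 FPKM to 55.2 and 41.8 (log2 difference 2.04, SE 0.29, adjusted p = 8.23e-05), and in p53WT from 10.5, 12.5 and 15.8 to 105 and 99.2. Tnfrsf10b, a death receptor, rose (1.39, adjusted p = 0.00174), as did Trp53i11 (3.01, adjusted p = 0.000286). Ckap2, a spindle protein, is both a target and a cell cycle gene and rose as well (3.23, adjusted p = 1.02e-05). Ephx1, epoxide hydrolase, fell from 103, 78.1 and 131 to 11.8 and 18.3 (log2 difference -2.71, SE 0.36, adjusted p = 5.88e-05), and Perp, a desmosomal membrane protein, from 13.9, 8.31 and 5.45 to 1.58 and 2.24 (log2 difference -1.73, SE 0.54, adjusted p = 0.022, 0.137 without p53KO_G2 replicate 1, also lost without p53KO replicate 1 or p53KO_G2 replicate 2), where p53WT was at 5.54, 14.7 and 10.1 and p53WT_G2 at 8.69 and 10.5. Trp53 itself was higher in p53KO_G2 than in p53KO (1.05, adjusted p = 0.00422, 0.0614 with median-of-ratios scaling).

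**Figure D4:**
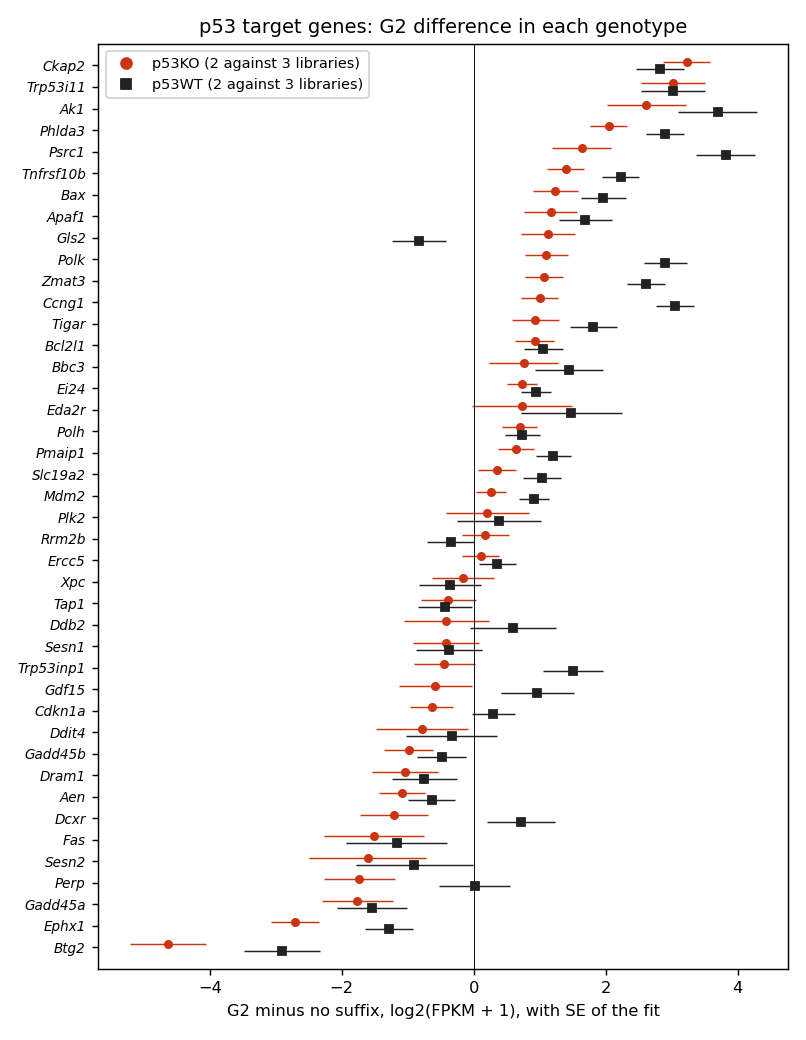
Difference between G2 and no suffix on log2(FPKM + 1) for 42 p53 target genes in p53KO (red circles) and p53WT (black squares), with the SE of the limma fit as bars, ordered by the p53KO value. Black squares lie to the right for most genes, among them Ccng1, Zmat3, Polk and Psrc1, and Gls2 is the clearest case in the other direction.

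Outside the p53 targets, 3 genes had some of the smallest interaction p-values. Taco1, a mitochondrial translation activator, was at 2.54, 1.32 and 2.76 FPKM in the p53KO libraries and 2.87 and 1.61 in p53KO_G2 and is listed at 0 in the p53WT libraries, with 11.2 and 11.9 in p53WT_G2 (limma's interaction adjusted p = 0.123; it passed with quantile normalization, adjusted p = 0.0392, and with a pseudocount of 0.1, adjusted p = 0.00297, and reached 0.0607 to 0.451 in the other alternatives). Npy, neuropeptide Y, was at 5.26, 5.16 and 3.13 FPKM in the p53KO libraries and 12.1 and 7.59 in p53KO_G2, and at 18.2, 4.48 and 9.76 in p53WT and 0 and 1.52 in p53WT_G2 (interaction 3.68, adjusted p = 0.291). Cenpq, a kinetochore subunit, was at 14.5, 10.8 and 10.7 FPKM in the p53KO libraries and 44.4 and 25.5 in p53KO_G2, and at 25.6, 12.7 and 14.6 in p53WT and 13.1 and 8.43 in p53WT_G2 (interaction 2.06, adjusted p = 0.356).

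Among markers of other cells, those of peripheral nerve and tendon were often called lower in p53KO_G2. Over all genes 7.84% were lower and 24.8% higher, and 6.00% and 24.0% in p53WT. Of 15 Schwann cell markers 7 were lower and 1 higher (median -1.41; 7 and 2 in p53WT). Mbp, myelin basic protein, fell from 93.6, 101 and 101 FPKM to 23.8 and 30.8 (-1.82, adjusted p = 0.0313, 0.172 without p53KO_G2 replicate 1, also lost without p53KO_G2 replicate 2 or p53KO replicate 2 or p53KO replicate 3 or p53KO replicate 1), and Prx, periaxin, from 22.9, 23.2 and 22.9 to 5.63 and 7.16 (-1.71, adjusted p = 0.00113). Of 12 tenocyte markers 7 were lower and 1 higher (median -1.13), against 1 and 1 in p53WT (median -0.02). Egr1, described above, is one of them. Tnmd, tenomodulin, was at 51.7, 44.1 and 32.4 in p53KO and 16.1 and 23.1 in p53KO_G2 (-1.08, adjusted p = 0.027, 0.213 without p53KO_G2 replicate 1, also lost without p53KO replicate 1 or p53KO replicate 2) and at 24.1, 48.9 and 41.5 in p53WT and 39.7 and 54.3 in p53WT_G2 (interaction -1.42, adjusted p = 1). Scx, the tendon transcription factor scleraxis, went the other way, from 2.25, 4.44 and 4.55 to 18.1 and 30.99 (2.42, adjusted p = 0.000845). Of 13 fibro-adipogenic progenitor markers 4 were lower and 1 higher; Dcn, decorin, fell from 625, 443 and 339.7 to 129 and 69.1 (-2.25, adjusted p = 7.65e-05). Schwann cell markers called lower numbered 4 without either p53KO_G2 library or without p53KO replicate 1 or 3, and tenocyte markers 4 without p53KO_G2 replicate 1.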

How the data were processed

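The labels describe RNA-seq of sorted mouse muscle stem cells (total RNA, NEBNext Ultra II Directional libraries). The authors deposited 1 table per library in FPKM, made with STAR, Cufflinks and Cuffdiff on mm10 per the submitters' processing notes. The sources used here name no versions. Read totals are not given in the files, so the depth is unknown. An exact 0 can be a failed estimate.

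From these, log2(FPKM + 1) was fitted with limma 3.58.1 (R 4.3.3) with a trend, using all 16 libraries in 6 groups, which share 1 estimate of the spread. Genes with at least 1 FPKM in 2 of the 5 p53KO and p53KO_G2 libraries were kept, and calls used a Benjamini-Hochberg adjusted p under 0.05 over 11874 genes. Unless said otherwise, a bare value beside an adjusted p is the log2 difference of G2 minus no suffix. On simulated data 81.5% of 4-fold and 14.5% of 2-fold changes were recovered in p53KO_G2 against p53KO (200 changed genes of 11874).

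The members, gene lists and cell markers were chosen with earlier results of these data known. Genes were named by a rule: the targeted and sort genes, the 12 largest rises and falls with at least 5 FPKM and no overlap, the largest called members of each list, and the smallest interaction p-values. Other list members are examples chosen after their values were seen. The alternatives were median-of-ratios scaling, quantile normalization, a pseudocount of 0.1, no filter, a mean of at least 5 FPKM, small RNA left out, array weights, fewer libraries in the fit, values without an OK status left out, a replicate block and leaving out each library. In the main fit the libraries with the suffix 3dai were used only for the spread. They also entered the median-of-ratios scaling, the quantile normalization and the replicate block, which used all 16 libraries. Some genes that the rule would name are not reported here.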

Additional observations from a re-analysis of the deposited data

How the results depend on the processing

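Genes called in p53KO_G2 against p53KO (2948 higher, 931 lower) split into 1622 and 1674 with median-of-ratios scaling and 1834 and 1722 with quantile normalization; of the calls, 76.0% were higher as deposited and 49.2% and 51.6% with these scalings. Leaving out each library gave 2122 to 3826 calls (1680 to 2860 higher, 442 to 966 lower), lowest without p53KO_G2 replicate 1, where the lone G2 library is assumed to vary like the other groups, and 386 to 534 over the gene lists against 545. In p53WT the range was 1840 to 3209. The interaction, at 0 calls, gave 1 with quantile normalization, 2 with a pseudocount of 0.1, 5 with no filter, and 0 to 1 without single libraries. The other alternatives kept the total within 1.5 times. Replicate numbers gave no clear sign of pairing: same-numbered libraries deviated together with r = 0.0595 and 0.0513, and a replicate block gave 3619 calls. With 2 G2 libraries their deviations mirror each other, so this check cannot exclude pairing. Cholesterol genes lower were 16 with either scaling, p53 targets higher 5 with only the compared groups fitted, and Schwann cell markers lower 2 with a pseudocount of 0.1, against 10, 14 and 7. The causes were not tested beyond what each scaling does to the median gene. In the simulation, with 200 changed genes of 11874, 14.5% of 2-fold changes were recovered. With the 3879 calls made here the adjusted threshold is looser, so that share cannot be carried over to these data. Of the 126 genes named with a test 108 were called, 79 of them in each of the alternatives tried, and none turned sign while called. With a pseudocount of 0.1 the calls of Cdkn2b, Gli2, Gls2, Mbp, Msc, Npas2, Perp, Polk and Tnmd were lost, and with a fit limited to the compared groups those of Ccng1, Cd34, Gli2, Gls2, Heyl, Jag2, Notch3, Polk, Psrc1, Trp53 and Zmat3; the array weights, replicate block, no filter and hind limb fits ended the calls of Cdkn2b, Gli2, Gls2, Hspa1a and Mbp between them.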

Other observations

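In the growth factor list 12 of 38 genes were higher and 7 lower, where 24.8% and 7.84% of all genes were. Some of its members are imprinted, and those given here are examples picked with their values known. H19, a long noncoding RNA of the Igf2 locus, was at 21.3, 13.8 and 36.1 FPKM in the p53KO libraries and 168 and 269 in p53KO_G2 (log2 difference 3.21, SE 0.47, adjusted p = 0.000119). Mest rose from 31.3, 36.4 and 65.4 to 294 and 346 (log2 difference 2.89, SE 0.39, adjusted p = 5.76e-05), and Grb10, an adaptor that restrains insulin signalling, from 44.1, 52.1 and 66.02 to 174 and 136 (log2 difference 1.51, SE 0.21, adjusted p = 7.23e-05). Meg3 and Rian, noncoding RNAs of the Dlk1 locus, went the other way, Meg3 from 82.4, 88.9 and 80.6 to 5.25 and 19.2 (-2.92, adjusted p = 0.000414) and Rian from 91.7, 103 and 95.9 to 7.48 and 11.4 (-3.25, adjusted p = 2.39e-06). In all 5 genes the groups did not overlap, where 39.8% of all genes tested were higher and 15.2% lower without overlap. Dlk1 itself was at 2.56, 1.38 and 0.232 FPKM in the p53KO libraries and 2.39 and 0 in p53KO_G2 and was not called (-0.25, adjusted p = 0.742). Rian is not in that list and was chosen after its values were seen. The p53WT comparison gave differences of 4.32 for H19, 3.02 for Mest and -3.20 for Rian.

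Several other groups of genes differed, beside 24.8% of all genes called higher and 7.84% lower. Of 20 senescence genes 10 were higher and 1 lower, but the members that rose differ in what they are known for. Besides Cdkn2a and Cdkn2b, Lmnb1, lamin B1, which senescent cells lose, rose from 8.17, 10.7 and 10.4 FPKM to 98.01 and 62.3 (2.89, adjusted p = 1.75e-07), and Hmgb2 rose from 3.04, 5.37 and 6.48 to 77.5 and 35.9 (3.22, adjusted p = 5.58e-06). Of 37 DNA repair and damage signalling genes 23 were higher (14 with median-of-ratios scaling) and 0 lower. Circadian clock genes were lower in 7 of 19 cases, among them Npas2 (-1.91, adjusted p = 0.000665) and Per1 (-1.87, adjusted p = 0.0063, 0.127 without p53KO_G2 replicate 1). Of 10 complement genes tested 6 were lower and 0 higher; Serping1, the C1 inhibitor, fell from 439, 454 and 346 to 126 and 159 (-1.53, adjusted p = 0.00725, 0.0768 without p53KO_G2 replicate 1).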
